A study of Mus musculus with 2 samples.

Results

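Forkhead genes encode transcription factors that share a winged-helix DNA-binding domain, and the accessibility of their promoters and surroundings was described in DNase-seq data from the bladder of the mouse. The members were all GENCODE M21 protein-coding genes whose symbol is Fox followed by a family letter and a number, with 1 gene left out by the rule, and they came to 43 of 21938 protein-coding genes. The rule reads symbols and no measured value.

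DNase-seq maps chromatin that the nuclease DNase I can cut. The tissue was urinary bladder from B6CASTF1/J males at an age of 36 days, the F1 hybrids of the strains C57BL/6J and CAST/EiJ. The only group held 2 libraries from separate animals, here replicate 1 and replicate 2, with no treatment, no other tissue and no control group. Reads of both parental genomes were placed on mm10, which represents C57BL/6J alone.

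Forkhead proteins are sorted by their DNA-binding domain into lettered subfamilies, and they bind variants of the core sequence TGTTTAC. FoxO proteins act downstream of insulin and growth factor signalling, where phosphorylation by AKT moves them out of the nucleus. Other members are known as regulators of one lineage, such as Foxj1 in cells with motile cilia, Foxp3 in regulatory T cells and Foxf1 in the mesenchyme of organs that form around an endodermal tube.

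The authors deposited a shorter and a longer peak list per library, and the shorter, used here unless stated, held 38674 peaks in replicate 1 and 47661 in replicate 2, with a median width of 200 bases in both. Heights are not on the same scale in the 2 libraries, with medians of 1.46 and 1.152, so each peak was ranked within its own library. Start peaks of 10 of 12 urothelial marker genes were present in both libraries. The same held for 3 of 8 smooth muscle, 2 of 5 fibroblast and 2 of 5 endothelial markers. It held for 0 of 5 T cell, 1 of 4 ciliated cell, 0 of 4 hepatocyte and 1 of 3 thyroid markers. The share over all protein-coding genes was 56.3%, above the 37.5% of smooth muscle and the 40% of fibroblast and of endothelial markers. The label of bladder tissue was met by most of its urothelial markers, and the others, Krt5 and Krt19, had a start peak in replicate 2 alone. Ranked by height among all start peaks, the 10 markers had mean percentiles from 29.2 at Upk1a to 84.9 at Klf5. Klf5 alone stood above 70.0, the median of protein-coding genes with start peaks in both libraries. Of the smooth muscle markers, Myh11, Mylk and Synpo2 had start peaks in both libraries. Acta2, Actg2, Tagln, Cnn1 and Des had none in either library.

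A start peak is a peak that overlaps the 500 bases on either side of any annotated transcript start of a gene. In both libraries, 19 of the 43 forkhead genes (44.2%) had a start peak, against 56.3% of all protein-coding genes. Another 6 members (14%) had one in exactly 1 library, against 3.9% of all genes, and 18 (41.9%) had none. The shortfall differed between libraries: in replicate 1 alone 55.8% of members had a start peak against 57.8% of all genes, and in replicate 2 alone 46.5% against 58.6%. Members also offered fewer start windows, with a median of 1 annotated start per member beside 3 per protein-coding gene. With the gene start only, 41.9% of members had start peaks in both libraries, against 50.9% of all genes. In a mixed tissue, fewer cells of a type and weaker accessibility within each cell cannot be told apart.

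Whole subfamilies were accessible in several cases. All 4 FoxO genes (Foxo1, Foxo3, Foxo4, Foxo6), all 3 FoxJ genes (Foxj1, Foxj2, Foxj3), both FoxK genes (Foxk1, Foxk2), both FoxC genes (Foxc1, Foxc2) and Foxm1 had start peaks in each library. FoxP had 3 genes with start peaks in both (Foxp1, Foxp2, Foxp4) and 1 in a single library (Foxp3). FoxN was split, with Foxn2 and Foxn3 in both, Foxn1 in 1 library and Foxn4 in neither. Foxf1 and Foxd2 had start peaks in both libraries, while their relatives Foxf2 and Foxd1 had them only in replicate 1. No gene of the FoxE, FoxH, FoxI, FoxL, FoxQ, FoxR and FoxS subfamilies had one in either library.

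**Figure D1:**
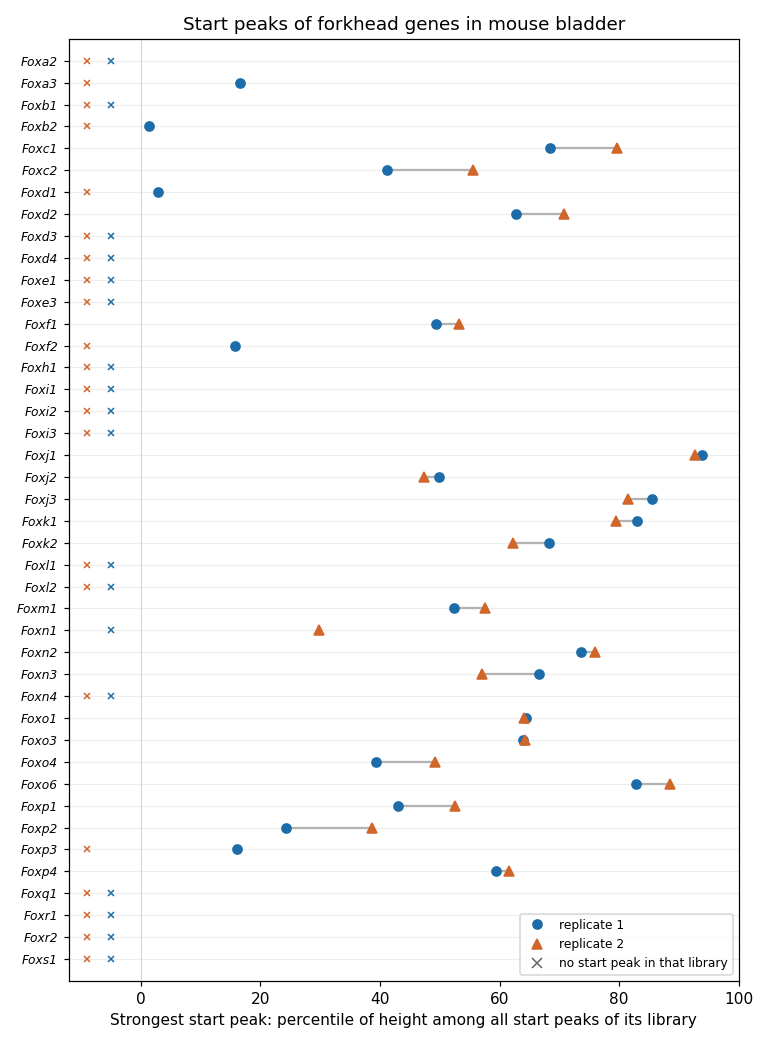
Percentile of the strongest start peak of each forkhead gene shown among all start peaks of the same library (x axis, percent), with circles for replicate 1, triangles for replicate 2 and crosses where a library had no start peak. Foxj1 lies furthest right at 93.9 and 92.6, and genes without a start peak in either library carry both crosses.

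The sequences under the strongest start peaks are shown first, because each holds the motif GGGCGG, as most of the accessible forkhead promoters did. They are written 5′ to 3′ on the strand of the gene, with matches to the GC box, GGGCGG on either strand, in capitals. For Foxj1 the 41 bases lie at chr11:116335500-116335540 of mm10 on the minus strand, inside the peak of both libraries and upstream of every annotated start. For Foxo6 the 200 bases lie at chr4:120287781-120287980 on the minus strand, in the part of the peak that both libraries share. For Foxj3 the 250 bases lie at chr4:119539411-119539660 on the plus strand, just before the start of its RefSeq transcript (RefSeq promoter table, build GRCm38.p6).
Foxj1: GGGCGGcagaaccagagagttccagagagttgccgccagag
Foxo6: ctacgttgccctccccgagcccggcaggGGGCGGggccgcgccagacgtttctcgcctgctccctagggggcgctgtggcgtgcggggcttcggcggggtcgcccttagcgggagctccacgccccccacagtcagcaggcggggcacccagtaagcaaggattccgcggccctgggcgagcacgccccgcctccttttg
Foxj3: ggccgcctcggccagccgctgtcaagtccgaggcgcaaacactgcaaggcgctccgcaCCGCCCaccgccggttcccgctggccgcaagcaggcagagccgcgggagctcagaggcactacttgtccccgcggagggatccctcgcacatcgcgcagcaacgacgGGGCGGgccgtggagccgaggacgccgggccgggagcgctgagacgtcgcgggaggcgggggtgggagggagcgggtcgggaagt
The stretches held 1, 1 and 2 GC boxes and no TGTTTAC.

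The gene of motile ciliogenesis, Foxj1 (ENSMUSG00000034227.7), had the highest ranking start peak of the family within 500 bases of a start. With windows of 1000 bases its mean percentile was 93.9, and those of Foxn3 (99.5) and Foxo3 (95.7) stood above it. Its peaks at chr11:116335361-116335540 in replicate 1 and chr11:116335341-116335560 in replicate 2 were centred 52 bases upstream of the gene start. Their heights were 5.08 and 4.96, at percentiles 93.9 and 92.6 of all start peaks (93.2 ± 0.865, SD, n = 2 libraries). The 2 libraries differed little here, and 7 and 6 footprints, short protected stretches within accessible chromatin, lay in the start window. Of 8 genes listed as targets of FOXJ1 or as cilium genes, 5 had start peaks in both libraries (Rfx2, Rfx3, Dnah9, Dnah11 and Ccdc39), a share of 62.5%, close to the 56.3% of all protein-coding genes. The axonemal genes Dnah5, Tekt1 and Hydin, which also mark ciliated cells, had none in either library.

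Among the FoxO genes, Foxo6 ranked highest and Foxo4 lowest. The Foxo6 peaks, chr4:120287761-120287980 in replicate 1 and chr4:120287781-120288120 in replicate 2, had heights of 3.89 and 4.38 and percentiles of 82.8 and 88.4 (85.6 ± 3.98, SD, n = 2), and their midpoints lay 522 and 602 bases upstream of the gene start. They reached the start window only at its outer edge, and with windows of 250 bases Foxo6 had no start peak. At Foxo1, 3 separate start peaks were listed in each library, the strongest at chr3:52268161-52268500 in replicate 1 with a height of 2.71 and at chr3:52268161-52268480 in replicate 2 with 2.48. Its percentiles of 64.4 and 64.0 (64.2 ± 0.242, SD, n = 2) and those of Foxo3, 63.9 and 64.3 (64.1 ± 0.308, SD, n = 2), differed by no more than the spread between libraries. Foxo4, on the X chromosome, had percentiles of 39.4 and 49.3 (44.3 ± 7.02, SD, n = 2), below the other FoxO genes in both libraries.

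The strongest accessibility at Foxo3 lay just outside its start window. Peaks with midpoints 1026 and 1396 bases upstream of its gene start had heights of 5.11 and 5.77, and of 4.32 and 3.92, in replicates 1 and 2. The peak over the start itself, at chr10:42276421-42276980 and chr10:42276341-42276880, had heights of 2.69 and 2.50. With windows of 1000 bases the mean start peak percentile of Foxo3 was 95.7 instead of 64.1.

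The regulators that act on FoxO proteins were accessible at their starts. All 14 listed genes of FOXO control had start peaks in both libraries, among them Insr, Igf1r, Irs1, Irs2, Pik3ca, Pik3r1, Pdpk1, Akt1, Akt2, Sgk1, Sirt1, Ywhaz and Usp7. Their mean percentiles ran from 49.5 at Igf1r, a receptor for insulin-like growth factors, to 94.7 at Ywhaz, which encodes a 14-3-3 protein that binds phosphorylated FoxO. Of 19 listed FOXO target genes, 15 had start peaks in both libraries, among them Txnip at a mean percentile of 99.7, Sod2 at 98.1 and Cdkn1b at 71.0. The 4 targets without one in either library were Pck1, G6pc and Igfbp1, which are genes of liver metabolism, and Trim63, a ubiquitin ligase gene of muscle. These shares stand beside the 56.3% of all protein-coding genes and the 89.2% of those with starts rich in CpG pairs.

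Foxj3 ranked high without a peak at its outermost start. Its peaks at chr4:119539441-119539680 and chr4:119539301-119539680 had heights of 4.12 and 3.70 and percentiles of 85.5 and 81.4 (83.5 ± 2.92, SD, n = 2). They lay at a start 2657 bases inside the annotated gene, which is the gene's outermost start in RefSeq, and in replicates 1 and 2 they also lay in a start window of Frg2f1. Its relative Foxj2 had percentiles of 49.9 and 47.3 (48.6 ± 1.79, SD, n = 2), well below both other FoxJ genes.

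FoxK proteins are repressors tied to metabolism and autophagy. Foxk1 had peaks at chr5:142401341-142401580 and chr5:142401341-142401560, with heights of 3.90 and 3.54 and percentiles of 83.0 and 79.5 (81.2 ± 2.45, SD, n = 2). Foxk2 had peaks at chr11:121259721-121259900 and chr11:121259781-121260060, with heights of 2.94 and 2.38 and percentiles of 68.2 and 62.2 (65.2 ± 4.26, SD, n = 2). Foxk1 was the higher of the pair in each library, and the ranges of the pair over libraries did not overlap.

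Foxn2 and Foxn3, relatives within FoxN, were accessible at different kinds of start. The strongest peaks of Foxn2, at chr17:88440481-88440720 and chr17:88440481-88440740, were centred 110 and 100 bases upstream of its gene start, with heights of 3.27 and 3.29 and percentiles of 73.7 and 76.0 (74.9 ± 1.68, SD, n = 2). At Foxn3, which encodes a repressor linked to the DNA damage checkpoint, the strongest peaks belonged to a start 170510 bases inside the gene (chr12:99393001-99393480 and chr12:99392981-99393460), with heights of 2.83 and 2.11 and percentiles of 66.5 and 57.0 (61.8 ± 6.75, SD, n = 2). The peak at the outermost Foxn3 start reached percentiles of only 38.0 and 23.8. With windows of 1000 bases the mean percentile of Foxn3 was 99.5, because a taller peak next to the internal start then counted.

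FoxC genes pattern mesoderm, vessels and the urogenital system. Foxc1 had peaks at chr13:31806461-31806740 and chr13:31806461-31806700 with heights of 2.95 and 3.56, at percentiles 68.4 and 79.7 (74.1 ± 7.97, SD, n = 2). Foxc2, a factor of lymphatic vessel development, had heights of 1.66 and 2.04, at percentiles 41.2 and 55.5 (48.4 ± 10.1, SD, n = 2). Both genes ranked higher in replicate 2, and Foxc1 stood above Foxc2 in each library.

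Foxd2, which acts in kidney mesenchyme, had peaks at chr4:114908901-114909300 and chr4:114908901-114909260, with heights of 2.62 and 2.92 and percentiles of 62.7 and 70.8 (66.7 ± 5.69, SD, n = 2). These peaks also lay in a start window of the non-coding gene Foxd2os. Foxm1, a driver of mitotic genes in dividing cells, had percentiles of 52.3 and 57.6 (55.0 ± 3.70, SD, n = 2), with a peak that also lay in a start window of the neighbouring gene Rhno1. The height at such a shared promoter cannot be divided between the neighbours. For Foxd2, Foxj3 and Foxm1, 3 of the 19, the strongest peak lay at a start of another gene in both libraries. All 8 listed FOXM1 targets of the cell cycle (Ccnb1, Ccnb2, Plk1, Aurkb, Cenpf, Cdc25b, Birc5 and Top2a) had start peaks in both libraries, as did 56.3% of all protein-coding genes and 89.2% of those with starts rich in CpG pairs.

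Foxf1 had peaks at chr8:121083601-121083950 and chr8:121083641-121084000, with heights of 1.97 and 1.92 and percentiles of 49.3 and 53.2 (51.3 ± 2.74, SD, n = 2). Their midpoints were 610 and 565 bases upstream of the gene start, on the side of the divergent non-coding gene Fendrr, in whose start window the peak of replicate 1 also lay. Foxf1 answers to hedgehog signalling in visceral mesenchyme. Of 8 listed genes tied to hedgehog signalling, Ptch1, Smo, Gli1, Gli2, Gli3 and Bmp4 (6 genes, 75%) had start peaks in both libraries. This stands beside 56.3% of all protein-coding genes. The ligand genes Shh and Ihh had none in either library.

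Foxp1, Foxp2 and Foxp4 are genes of transcriptional repressors. Foxp4 carried 6 start peaks in replicate 1 and 2 in replicate 2. It had a strongest peak at chr17:47924401-47924800 in replicate 1 and chr17:47924401-47925100 in replicate 2, with heights of 2.45 and 2.34 and percentiles of 59.3 and 61.6 (60.4 ± 1.57, SD, n = 2). Foxp1, with 22 annotated starts, carried 7 start peaks in replicate 1 and 9 in replicate 2, and the strongest reached percentiles of 43.1 and 52.6 (47.8 ± 6.72, SD, n = 2). They lay around the gene start and at starts 256206 and 494730 bases inside the gene in both libraries, with a further one 426516 bases inside in replicate 2 alone. Foxp2 carried 4 and 6 start peaks, some at the gene start and the rest at starts 283298 to 284214 bases inside. Its strongest reached percentiles of 24.4 and 38.7 (31.5 ± 10.2, SD, n = 2), but these were different peaks. They lay at chr6:14901321-14901651 in replicate 1 and chr6:14900541-14900860 in replicate 2. Replicate 1 also had a peak at chr6:14900561-14900800, with a height of 1.63 against 1.16 at its strongest start peak. The taller peak ended just outside the start window and was counted as distal, so the SD is not the spread of a single peak. By these start peaks Foxp2 ranked lowest of the 19 genes with start peaks in both libraries.

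Over the 19 genes the median of the mean percentile was 64.1, with a range of 31.5 to 93.2, against a median of 70.0 for the 12341 protein-coding genes with start peaks in both libraries. The order of the middle ranks was loose. The SD of the 2 libraries was 10.1 at Foxc2 and 7.97 at Foxc1, so that Foxc1 did not differ beyond it from Foxn2, nor Foxc2 from Foxf1, Foxj2 or Foxp1.

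Peaks present in 1 library were low within 500 bases of a start. The 5 genes with a start peak only in replicate 1 (11.6% of members, against 1.58% of all genes) were Foxa3, Foxb2, Foxd1, Foxf2 and Foxp3. Foxn1, the factor of thymic epithelium, was the 1 gene with a start peak only in replicate 2 (2.33%, against 2.32% of all genes), at percentile 29.8 with a height of 1.09. The 5 peaks of replicate 1 lay at percentiles of 1.36 (Foxb2), 2.96 (Foxd1), 15.7 (Foxf2), 16.2 (Foxp3) and 16.6 (Foxa3). Each ranked below every strongest start peak of the 19 genes in replicate 1, and the Foxb2 peak was only 29 bases wide. For 2 of the 6 genes this turned on the window: with 1000 bases on either side the mean percentile was 81.9 at Foxa3, instead of 8.30, and 59.1 at Foxp3, instead of 8.09. A start window of Sympk touches that of Foxa3, and whether the taller peaks in wider windows belong to Foxa3 and Foxp3 was not tested. The gene of regulatory T cells, Foxp3, had its peak of height 0.964 centred 437 bases downstream of the start. That peak also lay in start windows of Flicr and Ppp1r3f. No T cell marker of the 5 had start peaks in both libraries.

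In the library without the peak, a stretch of low false discovery rate was still listed at the start of 3 of these genes. The authors deposited this rate (FDR) for stretches of bases up to 0.05. At Foxf2 the lowest FDR in the start window of replicate 2 was 0.00766, at Foxn1 in replicate 1 it was 0.000759, and at Foxp3 in replicate 2 it was 1.67e-08, although the nearest peak there lay 617 bases from a Foxp3 start. On the longer, more permissive peak list, 23 members (53.5%) had start peaks in both libraries, against 61.4% of all genes.

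Among the 18 members without a start peak were Foxa2, Foxb1, Foxd3, Foxd4, Foxe1, Foxe3, Foxh1, Foxi1, Foxi2, Foxi3, Foxl1, Foxl2, Foxn4, Foxq1, Foxr1, Foxr2 and Foxs1. Many of these are known as genes of other organs: Foxe1 of the thyroid, Foxe3 of the lens, Foxl2 of the ovary and Foxd3 of the neural crest. At 14 of the 18 no stretch with an FDR of up to 0.05 was listed in any start window in either library. At Foxi3 the lowest FDR was 0.00521 in replicate 1 and 0.0155 in replicate 2, and at Foxl2 it was 0.00578 and 0.00885. Foxd4 and Foxe3 had such a stretch only in replicate 2, at 0.0190 and 0.0291. At Foxb1 the nearest peak lay 137360 bases from its start in replicate 1 and 137340 in replicate 2.

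For a few of these genes the call turned on where the annotation puts the start. In GENCODE M21 Foxq1 begins at position 31556134 of chromosome 13, and in RefSeq of the same assembly it begins 2036 bases further in. A peak with heights of 2.86 and 2.58 at chr13:31558021-31558520 covered the RefSeq start in both libraries. The RefSeq start of Foxh1, the partner of SMAD proteins in Nodal signalling, lies 1666 bases further out, at a peak with heights of 3.47 and 3.0 that also lies at the start of Ppp1r16a. At Foxl2 the RefSeq start lies 319 bases further in, and a peak with heights of 1.18 and 1.13 then fell within its window. Foxo6 moved the other way and had a start peak in replicate 1 alone under RefSeq. So did Foxp3, whose RefSeq start lies 6032 bases further in, and which had a start peak in neither library under RefSeq. With RefSeq starts 21 of the 43 members (48.8%) had start peaks in both libraries, 18 of them the same as before, against 55.7% of 21774 RefSeq protein-coding genes.

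In the median, forkhead starts held more CpG pairs than the starts of protein-coding genes at large. CpG content is given as the observed over the expected number of CpG pairs in the 500 bases on either side of the gene start, and a value of at least 0.6 is called CpG-rich here. The median was 0.763 for the 43 members and 0.552 for all protein-coding genes. Of the 31 CpG-rich members, 18 (58.1%) had start peaks in both libraries, against 89.2% of CpG-rich protein-coding genes. Of the 12 others, 1 (8.33%), Foxj3, had them, against 28.2% of all genes with poorer starts. The Foxj3 value, 0.180, belongs to its outermost start, which has no peak. In the 250 bases printed above, before the internal start that carries the peak, the value was 0.992, so Foxj3 is no case of a CpG-poor start with a peak. No test is attached to these shares, since genes are not replicates.

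A CpG-rich start without a start peak in either library was found at 9 members: Foxb1, Foxd3, Foxe1, Foxe3, Foxi3, Foxl1, Foxl2, Foxn4 and Foxr1. Their values ran from 0.628 at Foxr1 to 0.821 at Foxi3. Of these, Foxl2 had start peaks in both libraries under RefSeq. Foxq1, counted with the poorer starts at 0.243, had a peak over its RefSeq start in both libraries, at a site with a CpG value of 0.931. The median CpG value was 0.872 in the 19 members with start peaks in both libraries and 0.60 in the 18 without, against 0.730 and 0.196 for the matching classes of all genes. The gap to other CpG-rich genes was smaller on the longer list, 67.7% against 93.2%, and with a CpG minimum of 0.75, 69.6% (16 of 23) against 92.6%. In replicate 2 alone the shares were 58.1% and 90.6%, and in replicate 1 alone 71% and 90.7%.

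**Figure D2:**
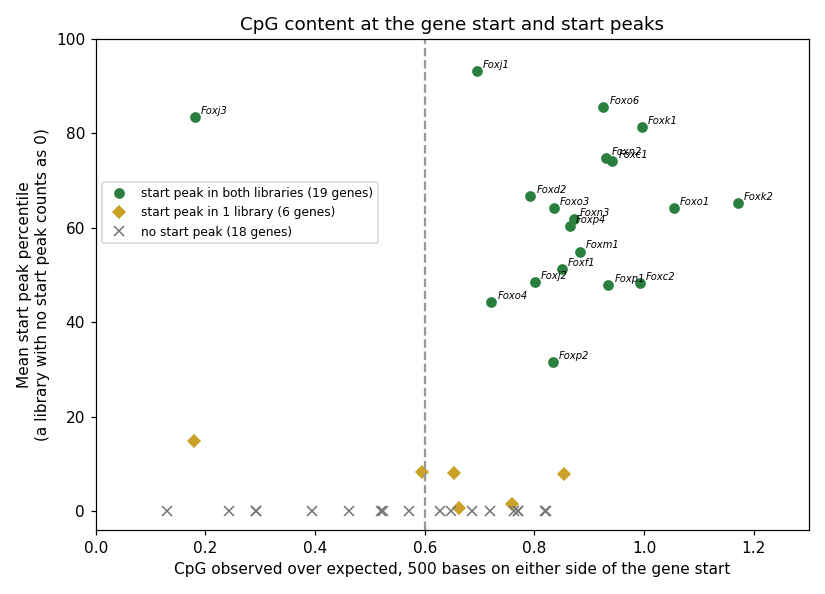
Mean start peak percentile of each forkhead gene (y axis, percent, a library without a start peak counted as 0) against the observed over expected CpG content around its gene start (x axis), with the dashed line at 0.6. Of the 31 genes right of the line, 18 are green circles with start peaks in both libraries, and the only green circle left of it is Foxj3, whose peak lies at another start, 2657 bases inside the gene, than the start on the x axis.

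Motif letters were counted in the same windows. A GC box was present within 500 bases of the gene start in 39 of 43 members (90.7%), against 60.4% of all protein-coding genes. Among genes with start peaks in both libraries it was 18 of 19 (94.7%) against 83.6%, and the exception was the outermost start of Foxj3, which has no peak. The TATA motif TATAAA was present in 7 members (16.3%, against 32.3%), and the AP-1 motif TGANTCA in 2 (4.65%, against 18.9%), Foxe3 and Foxl1. The forkhead core TGTTTAC was present at 4 members (9.3%, against 9.55%), Foxo1, Foxo4, Foxp1 and Foxp2. All 4 of those had start peaks in both libraries, which is 21.1% of the 19, beside 7.93% of all genes with start peaks in both. Both strands were searched for each motif, and a match shows letters only, not a bound factor.

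Footprints at the starts gave a similar count to peaks. A footprint lay in a start window of 21 members (48.8%) in both libraries, against 58.5% of all protein-coding genes. This gap was absent in replicate 1 alone (62.8% against 60.6%) and with windows of 1000 bases (60.5% against 60.3%). In the 19 members with start peaks in both libraries the median number of start footprints was 7 in replicate 1 and 6 in replicate 2, beside 6 and 6 for all such genes. Foxp1, with its 22 starts, had the most in replicate 1, at 28, and Foxp4 the most in replicate 2, at 19.

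Distal peaks were counted in the gene body plus 50 kb on either side, leaving out every peak at a start of any annotated gene. A distal peak in both libraries was present at 35 of 43 members (81.4%), against 66.4% of all protein-coding genes. The median was 3 distal peaks per member in each library, beside 1 and 2 for all genes. Counting sites at which peaks of both libraries overlap, the median was 2 per member and 1 per gene, or 17.7 and 8.49 per Mb of region. The 163 distal sites around the family comprised 84 shared sites, 20 found only in replicate 1 and 59 only in replicate 2, the library with more peaks.

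Members without a start peak were not empty of distal sites. A shared distal site was present at 16 of the 19 members with start peaks in both libraries (84.2%), with a median of 3. It was present at 13 of the 18 without a start peak (72.2%), with a median of 1. The median of all protein-coding genes was also 1, and 66.4% of them had distal peaks in both libraries, overlapping or not. The 18 thus did not stand out from genes at large. Foxe1 had 4 shared sites although the nearest peak to its start lay 13272 bases away in replicate 1 and 31492 in replicate 2. No distal peak was found in either library at Foxb1, Foxo4, Foxp3 or Foxr2.

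**Figure D3:**
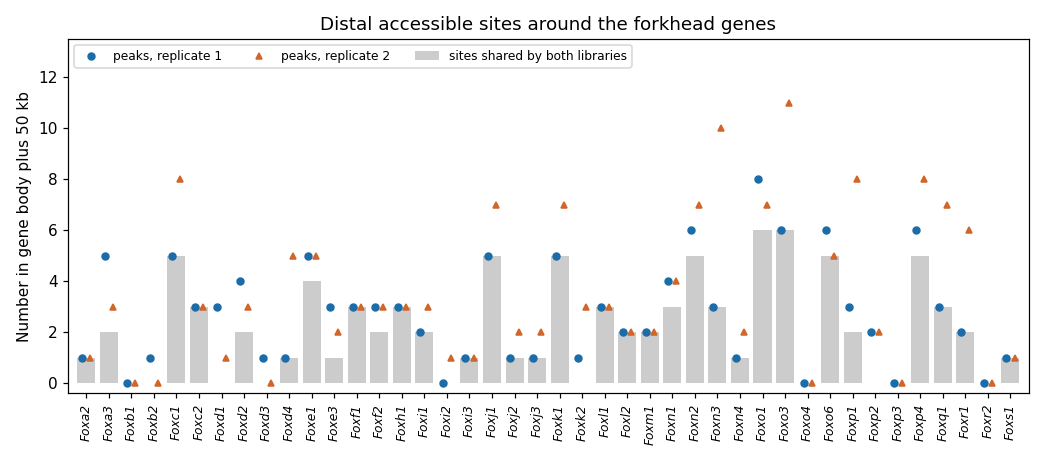
Number of distal peaks in the gene body plus 50 kb of each forkhead gene shown, in replicate 1 (circles) and replicate 2 (triangles), with grey bars for sites shared by both libraries. Foxo1 and Foxo3 have the tallest bars at 6, and triangles stand far above the bars at Foxo3, Foxn3 and Foxp1.

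FoxO genes had the most shared distal sites of any subfamily, 17 in sum, followed by FoxN with 12 and FoxC with 8. FoxO and FoxN have 4 genes each and FoxC has 2, and the sums are not scaled to gene number or region length. The FoxC sum includes the 3 sites of Foxc2 that also count for Foxf1 and Foxl1. Foxo1 had 8 and 7 distal peaks in replicates 1 and 2 with 6 shared sites, and Foxo3 had 6 and 11 with 6 shared. Shared sites numbered 5 each at the next 6 genes. Their distal peaks in replicates 1 and 2 were 5 and 8 at Foxc1, 5 and 7 at Foxj1 and at Foxk1, 6 and 7 at Foxn2, 6 and 5 at Foxo6, and 6 and 8 at Foxp4. Replicate 2 had the higher count at each of these but Foxo6. The sites of Foxo1 were mostly low, with mean percentiles among distal peaks of 22.8 to 77.1. At Foxc1, 4 of the 5 lay inside the gene itself, 809 to 4234 bases downstream of its start, at mean percentiles of 33.5 to 55.1, and only the fifth, 5252 bases upstream, was high at 97.0.

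Shared sites around the family were tall for distal sites. Their median height percentile was 70.3 in replicate 1 and 79.99 in replicate 2, beside 56.6 and 67.7 for all 15637 shared distal sites of the genome. Of the 84 sites, 38 were intergenic, 29 lay in introns, 8 in coding exons and 9 in non-coding exons or UTRs. An observed over expected CpG of at least 0.6 was found in 21 (25%) of them, against 15% of all shared distal sites. Among sites with a mean percentile of at least 90 the shares were 55% (11 of 20) and 33.4% of 2022.

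The 4 tallest shared sites are shown because they outrank nearly every distal peak in the genome and hold CpG-rich sequence away from the starts of their neighbours in GENCODE. They are written on the plus strand, with capitals for the GC box, for the NRF1 motif GCGCATGC and for the RFX motif. The first lies in an intron of Foxn3 at chr12:99392041-99392260, the second 34056 bases upstream of Foxk1 at chr5:142367321-142367560, the third 1026 bases upstream of Foxo3 at chr10:42277601-42277960, and the fourth 2660 bases upstream of Foxc2 at chr8:121113401-121113620. The stretch printed for Foxn3 ends at 99392185, and that for Foxo3 runs from 42277631 to 42277930.
Foxn3 intron: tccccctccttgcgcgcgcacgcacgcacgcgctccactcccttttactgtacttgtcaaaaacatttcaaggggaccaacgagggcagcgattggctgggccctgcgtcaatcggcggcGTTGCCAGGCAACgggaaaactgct
Foxk1 upstream: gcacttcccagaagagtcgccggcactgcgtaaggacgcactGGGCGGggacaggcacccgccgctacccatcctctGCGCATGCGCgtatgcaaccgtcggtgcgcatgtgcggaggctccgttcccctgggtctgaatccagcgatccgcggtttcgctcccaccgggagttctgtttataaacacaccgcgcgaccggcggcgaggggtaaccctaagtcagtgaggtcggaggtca
Foxo3 upstream: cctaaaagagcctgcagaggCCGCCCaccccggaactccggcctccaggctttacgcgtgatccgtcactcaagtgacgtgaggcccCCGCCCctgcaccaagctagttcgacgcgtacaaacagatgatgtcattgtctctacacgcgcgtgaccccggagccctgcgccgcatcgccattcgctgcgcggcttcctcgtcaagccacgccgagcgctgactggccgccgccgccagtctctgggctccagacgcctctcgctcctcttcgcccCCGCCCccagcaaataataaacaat
Foxc2 upstream: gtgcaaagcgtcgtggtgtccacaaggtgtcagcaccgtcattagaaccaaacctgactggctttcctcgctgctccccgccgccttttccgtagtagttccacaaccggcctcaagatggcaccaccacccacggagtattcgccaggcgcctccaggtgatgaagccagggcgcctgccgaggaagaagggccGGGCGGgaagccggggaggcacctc
The Foxn3 site holds 1 RFX match, the Foxk1 site 2 overlapping NRF1 matches and 1 GC box, the Foxo3 stretch 3 GC boxes and the Foxc2 site 1.

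The Foxn3 site had heights of 7.96 and 7.21, a mean percentile of 99.9 and 6 footprints in each library. RefSeq places the start of a predicted gene, Gm51999, inside it at position 99392166. The Foxk1 site had heights of 7.30 and 7.35, a mean percentile of 99.9 and 4 and 7 footprints, and an observed over expected CpG of 1.08. It was taller than the Foxk1 start peak in each library. The Foxc2 site had heights of 4.90 and 4.91 and a mean percentile of 99.4. It stood above the start peaks of both Foxf1 and Foxc2 on the same chromosome and lay within a very long predicted gene model, Gm20388. Across all 84 sites, 6 (7.14%) fell in a start window of some RefSeq transcript, against 6.09% of all shared distal sites. Among sites with a mean percentile of at least 90 it was 3 of 20 (15%), against 11%.

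Foxf1, Foxc2 and Foxl1 lie close together on chromosome 8, and their regions share the same 3 distal sites. Of these, 1 lay in an exon of another gene, Mthfsd, between Foxf1 and Foxc2. The tallest peak of the cluster, with heights of 5.07 and 5.33, lay at a start of another gene, 24.0 kb from the Foxf1 start. Foxf1 and Foxc2 had start peaks in both libraries, and Foxl1, known from gut mesenchyme, had none, with its nearest peaks 2380 and 2300 bases from the start. The regions of Foxd2 and Foxe3 on chromosome 4, and of Foxf2 and Foxq1 on chromosome 13, also overlapped, and 4 shared sites in all counted for more than 1 member. A distal site is thus placed near a gene and is not shown to act on it. The tallest site of the Foxr1 region, at a mean percentile of 94.9, lay in an intron of Upk2, a uroplakin gene of the urothelium, and within 500 bases of a RefSeq start of Upk2 at position 44454767.

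**Figure D4:**
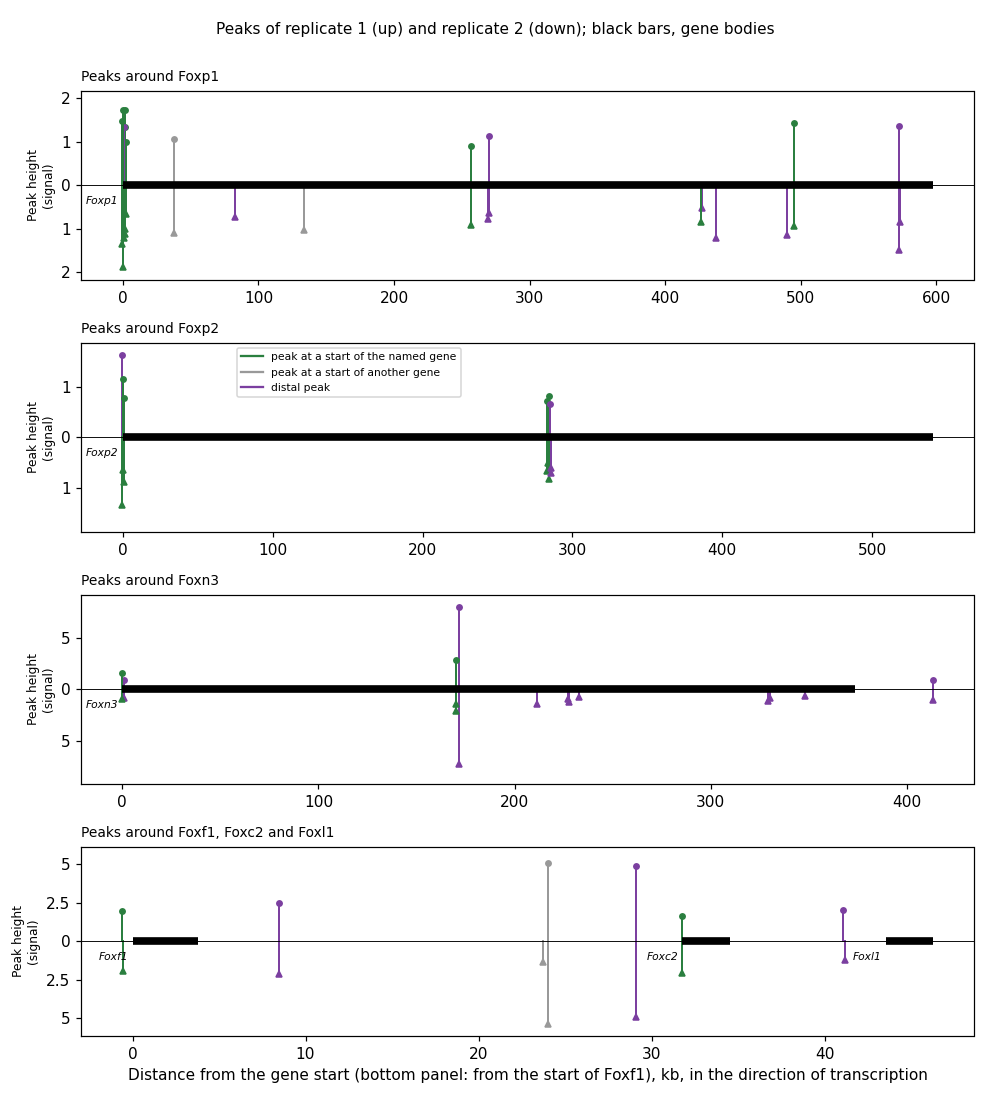
Peak heights in replicate 1 (upward) and replicate 2 (downward), on the signal scale of each library, against distance from the gene start in kb for Foxp1, Foxp2, Foxn3 and the Foxf1, Foxc2 and Foxl1 cluster, with black bars for gene bodies and colours for peaks at starts of the named genes, at starts of other genes and away from any start. The Foxn3 panel shows the intron site at 7.96 and 7.21 above the start peaks, and Foxl1 has no peak at its start.

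The forkhead core was found in few distal sites around forkhead genes, as in the genome at large. TGTTTAC was found in the central 200 bases of 1 of 84 sites (1.19%), against 3.13% of all shared distal sites. AP-1 was found in 10.7% against 12.4%, the GC box in 25% against 15.1%, TATAAA in 3.57% against 4.99%, and the CTCF motif in 20.2% against 26.3%. Over whole sites TGTTTAC occurred in 2 (2.38%, against 3.43% of all shared distal sites), a count too small to set apart from the genome. The 2 are shown here because they are the only places where a forkhead core lay in a shared distal site of the family. The first lies in an intron of Foxk1 at chr5:142440541-142440820, 39184 bases from its start, with 81 bases printed to 142440621. The second lies 7998 bases downstream of the Foxj1 start at chr11:116327261-116327540, with the bases 116327366 to 116327492 printed, and capitals mark the core on the plus strand.
Foxk1 intron: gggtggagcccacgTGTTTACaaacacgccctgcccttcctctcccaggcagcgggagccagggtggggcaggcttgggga
Foxj1 downstream: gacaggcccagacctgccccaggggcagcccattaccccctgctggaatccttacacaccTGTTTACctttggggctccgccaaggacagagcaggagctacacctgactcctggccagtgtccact
The Foxk1 site had a mean percentile of 96.0 ± 2.74 (SD, n = 2) with no footprint over the match in either library. The Foxj1 site had 75.1 ± 18.7 (SD, n = 2), with 0 footprints over the match in replicate 1 and 2 in replicate 2. In the whole genome a footprint covered the match in both libraries at 21 of 537 shared distal sites that hold TGTTTAC (3.91%).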

How the data were processed

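Per the labels, the authors made each list from reads on mm10, library by library. Which aligner and which callers were used is not given in the sources used here. Heights are deposited signal values of no stated scale, in whole steps of 0.0113 (replicate 1) and 0.00893 (replicate 2). Absolute depth is unknown, and so no counting intervals are printed. The deposited FDR is an adjusted p-value, listed up to 0.05. All deposited footprints carry 1 value, 0.01, which may limit a p-value or an FDR.

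Positions were compared with GRCm38 patch 6, GENCODE M21 and RefSeq in Python 3.11.15 (numpy 2.4.6), by code tested on simulated data. A shared site needed 1 base of overlap. RefSeq promoters, 32 in all, were found for 27 members. By rule, full values went to the 12 members ranking highest, those with a peak in 1 library and those with most shared distal sites, and sequences to the strongest start peaks and distal sites holding TGTTTAC. The 4 tallest distal sites, the CpG classes, the RefSeq starts and the CTCF, NRF1 and RFX motifs were added after values were seen. The members and gene lists were chosen with earlier results of these data known. No test was run, since there is 1 group and genes are not replicates. The names of 1 member and 1 gene of the lists are not reported here, and both are in the counts. Other lists, windows, regions and leaving out a library were tried.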

Additional observations from a re-analysis of the deposited data

How the results depend on the processing

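With 1 group of 2 libraries, counts describe these animals only. The number of members with start peaks in both libraries, 19, ranged from 15 to 23 under the alternatives that used both libraries. It was 15 (34.9% of members, against 41.1% of all genes) with only peaks in no other gene's start window. It was 23 (53.5% against 61.4%) on the longer list, 20 without replicate 1 (46.5% against 58.6%) and 24 without replicate 2 (55.8% against 57.8%). Members with distal peaks in both libraries, 35 (81.4% against 66.4%), ranged from 24 (10 kb, 55.8% against 38.9%) to 39 (100 kb, 90.7% against 77.9%). On the longer list this excess was smaller, 86% against 78.9%. Members with start footprints, 21, ranged from 17 (only within peaks, 39.5% against 54.6%) to 27 (without replicate 2, 62.8% against 60.6%). The shortfall of members in start footprints thus turned in replicate 1 alone and vanished with windows of 1000 bases (60.5% against 60.3%). All of these counts stayed within 1.5 times the value reported. The number of shared distal sites around the family did not: from 84 it became 162 on the longer list, 43 with the stronger 50% of peaks, 38 within 10 kb, 130 within 100 kb, and 104 to 143 with 1 library alone. It was 83 with an overlap of 50% of the shorter peak. Of the values for single genes, 40 start peak percentiles moved by at least the SD of the 2 libraries and 50 did not, leaving out the values from 1 library, which cannot pass that SD. Of the shared distal sites of single genes, 32 values moved by more than the SD and 16 did not. With windows of 1000 bases Foxn3 and Foxo3 outranked Foxj1, and Foxa3 and Foxp3 were no longer low. Start windows of Sympk touch those of Foxa3, and start windows of Flicr and Ppp1r3f touch those of Foxp3. Whether the taller peaks belong to Foxa3 and Foxp3 was not tested. No paired analysis was possible because there was only 1 group. Low peaks are limited by depth, which is unknown.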
